A study of Mus musculus with 6 samples.

Results

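The miR-10 and miR-99/100 family is an old group of microRNAs (miRNAs) whose genes sit in the Hox gene clusters or beside let-7 and miR-125 genes. It was followed here through 6 mature miRNAs taken by name: miR-10a-5p, miR-10b-5p, miR-99a-5p, miR-99b-5p and miR-100-5p, which are the guide strands, and miR-99b-3p, the passenger strand of the Mir99b hairpin. All 6 were found among the 1927 rows of the deposited table, of which 327 were above 0 in any library. The libraries were small RNA from extracellular vesicles (EVs), membrane-bound particles shed by cells, obtained by crushing tibias and femurs. The donors were male mice of the Swiss-CD1 strain, 8 weeks of age. No mouse was treated and no genetic change is named for any of them. Marrow was spun out of the bones first, and debris and cells were then removed at 700 g and 2000 g. Large EVs (lEVs, 3 libraries) were the material pelleted at 10000 g. Small EVs (sEVs, 3 libraries) came from the remaining supernatant, were gathered at 100000 g above a 30% sucrose cushion and were washed at the same speed. Whether the replicate libraries stem from different animals is not given, so every p-value below speaks only of the spread between these libraries, which may be technical. Vesicle size, spin and cushion differ together between the fractions and cannot be told apart. In bulk libraries of this kind, vesicles from fewer cells of a type and fewer copies of a miRNA per vesicle also cannot be told apart.

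A mature miRNA guides an Argonaute protein to messenger RNAs, which it recognises mainly through its seed, the short stretch near the 5′ end. The miR-10 genes lie among the Hox genes, which lay out the body axis, and several Hox messenger RNAs are known miR-10 targets. The miR-99/100 miRNAs are known repressors of the growth kinase mTOR, and their genes have stayed next to a let-7 gene and a miR-125 gene across animal evolution. let-7 miRNAs accumulate as cells differentiate, and miR-125 miRNAs are the vertebrate relatives of the worm timing miRNA lin-4.

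The 5 guide strands are shown because they are near copies of each other that split into a pair of seed groups. Sequences are those of RefSeq on GRCm38.p6, where all 11 miRNA names looked up were found, and capitals mark the seed, bases 2 to 8 from the 5′ end.
miR-10a-5p: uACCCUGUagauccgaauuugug
miR-10b-5p: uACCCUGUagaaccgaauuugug
miR-99a-5p: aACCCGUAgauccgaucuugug
miR-100-5p: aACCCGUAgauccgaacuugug
miR-99b-5p: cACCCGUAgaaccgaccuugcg
miR-99b-3p: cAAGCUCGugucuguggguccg
The seed ACCCUGU was held by 2 of the 1679 mature sequences in the RefSeq table, miR-10a-5p and miR-10b-5p, and the seed ACCCGUA by 3, the guide strands of the miR-99/100 branch. The label of one seed family is therefore not borne out by the sequences: the branches share no seed, and the longest stretch common to the 5 guide strands is guaga, which begins on the last seed bases and runs on behind them. miR-10a-5p and miR-10b-5p differ by the single substitution U12A, counted from the 5′ end of miR-10a-5p. miR-99a-5p and miR-100-5p differ by U16A, and miR-99a-5p and miR-99b-5p by A1C, U11A, U16C and U21C. From the end of the seed onward the branches cross: miR-10a-5p shares the 11 bases guagauccgaa with miR-100-5p, whereas miR-10b-5p shares the 10 bases guagaaccga with miR-99b-5p. miR-99b-3p has an unrelated seed, AAGCUCG, which it shares only with miR-99a-3p in that table. How reads with a mismatch were assigned is not given in the sources used here, so exchange of reads between miR-10a-5p and miR-10b-5p, or between miR-99a-5p and miR-100-5p, was not tested.

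Positions are from the GENCODE M21 annotation of GRCm38, and all 5 member hairpins are on the + strand. Mir10a lies at chr11:96317165-96317274 in no annotated gene, 993 bases from Hoxb4. Mir10b lies at chr2:74726070-74726137 within introns of Hoxd3 and Hoxd4. Mir99a lies at chr16:77598936-77599000 in an intron of its host transcript Mir99ahg, opposite an intron of Gm11146. Its neighbours Mirlet7c-1 and Mir125b-2 start 721 and 47337 bases further on. Mir99b lies at chr17:17830188-17830257 in an intron of Spaca6, and Mirlet7e and Mir125a follow at 164 and 624 bases, the latter in an exon of Spaca6. Mir100 lies at chr9:41531425-41531504 in introns of the transcripts 3110039I08Rik and Gm49317, with Mirlet7a-2 and Mir125b-1 starting 5291 and 50501 bases further on. An exon of Gm48742 runs across Mir100 on the opposite strand. Because the use of strand in counting is not given, reads of the 2 could not be separated here.

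The libraries held between 47441 and 114331 counts, and 145 rows passed the filter on low counts. One library stood apart: leaving out lEVs replicate 1, the shallowest, lowered the common biological coefficient of variation from 0.177 to 0.0832 and raised the number of rows called from 25 to 52. Results are therefore also given without it where it matters. Fold changes give sEVs over lEVs, and "called" means an adjusted p under 0.05. Abundances are in CPM, counts relative to a library size that edgeR's TMM factors had adjusted, and are given as mean ± SD over 3 libraries. Mature miRNAs of 22 to 24 bases need no length scaling, but no correction was made for how well each sequence is captured, so levels of different miRNAs are compared as counted.

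Of the 6 members 1, miR-10b-5p, was higher in small vesicles, and the other 5 were not called in either direction. miR-10b-5p, transcribed within the Hoxd cluster, rose 1.92-fold from large to small vesicles. Its one-base variant miR-10a-5p, from the Hoxb cluster, was at the same level in both fractions to within its replicate spread. In the fit across all rows 17.2% were called in either direction and 8.28% as higher in sEVs, so 1 call among 6 members is close to the background. The median log2 fold change of the members was 0.10, against -0.04 over all 145 rows tested.

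miR-10a-5p was the most abundant member. It stood at 2743, 2304 and 2768 CPM in lEVs replicates 1 to 3 and at 2829, 2558 and 2523 CPM in sEVs replicates 1 to 3. The fractions overlapped, with means of 2605 ± 261 CPM in lEVs and 2637 ± 167 CPM in sEVs. Its log2 fold change was 0.02 ± 0.13 (SE; edgeR quasi-likelihood test, adjusted p = 0.912). With library totals in place of TMM factors the value turned to -0.11 (edgeR, adjusted p = 0.676), again without a call.

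miR-10b-5p was counted 38, 109 and 86 times in lEVs and 126, 151 and 234 times in sEVs. As abundance this was 939, 1001 and 888 CPM in lEVs and 1739, 1596 and 2101 CPM in sEVs. Every sEVs library lay above every lEVs library, and the lEVs values, 943 ± 56.3 CPM, had the smallest SD relative to their mean of any member in that fraction. The sEVs mean was 1812 ± 260 CPM, with replicate 3 the highest. The log2 fold change was 0.94 ± 0.15 (SE; edgeR, adjusted p = 0.00367), and 0.93 without lEVs replicate 1 (edgeR, adjusted p = 0.000198). It was called in all 14 alternative settings of the fit, with edgeR, DESeq2 or limma voom adjusted p between 0.000151 and 0.0398 and log2 fold changes between 0.77 and 1.00.

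miR-99a-5p, the chromosome 16 member, stood at 914, 1239 and 1353 CPM in lEVs and at 1546, 1247 and 1266 CPM in sEVs. The fractions overlapped through lEVs replicate 3 alone, lEVs replicate 2 lay just under the lowest sEVs value, and the low point was lEVs replicate 1. Its log2 fold change was 0.18 ± 0.18 (SE; edgeR, adjusted p = 0.462), and 0.04 without that library. lEVs replicate 1 lay 0.50 below the other lEVs libraries on the log2 scale for this miRNA, against a median absolute deviation of 0.41 over all rows tested.

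miR-99b-5p, the chromosome 17 member, was nearly as abundant as miR-10a-5p, at 2619, 2066 and 1890 CPM in lEVs and 2567, 2400 and 2469 CPM in sEVs. The sEVs values were close together (2478 ± 83.9 CPM) and the lEVs values were not (2192 ± 380 CPM), with lEVs replicate 1 above all 3 sEVs libraries. The log2 fold change was 0.19 ± 0.15 (SE; edgeR, adjusted p = 0.362). Without lEVs replicate 1 all sEVs values lay above the lEVs values, at 0.31 ± 0.14 (SE; edgeR, adjusted p = 0.0969), which still missed the threshold.

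The opposite arm of the same hairpin, miR-99b-3p, went the other way in value. It was counted 9, 17 and 15 times in lEVs and 5, 13 and 12 times in sEVs, the lowest counts of any member. Its abundance was 222, 156 and 155 CPM for lEVs against 69.0, 137 and 108 CPM for sEVs, so all lEVs values lay above all sEVs values. At -0.65 ± 0.35 (SE; edgeR, adjusted p = 0.196) the log2 fold change did not pass, and counts this low limit its precision.

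miR-100-5p, from chromosome 9, was scarce too, with counts of 15, 29 and 31 in lEVs and 18, 34 and 26 in sEVs. Its 371, 266 and 320 CPM in lEVs overlapped its 248, 359 and 233 CPM in sEVs. The log2 fold change was -0.14 ± 0.26 (SE; edgeR, adjusted p = 0.690). Its SE exceeds the change measured for miR-99a-5p or miR-99b-5p, so changes of that size were not detectable for it at this depth. In all, 2 of the 6 members had fractions that did not overlap, against 44.1% of all rows tested. Without lEVs replicate 1 it was 3 of the 6, against 58.6% of those rows. Of the 4 members outside the Hox clusters 0 were called by edgeR, DESeq2 or limma voom, and 0 of the 4 reached an unadjusted p under 0.05 in edgeR, as 37.9% of all rows tested did.

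**Figure D1:**
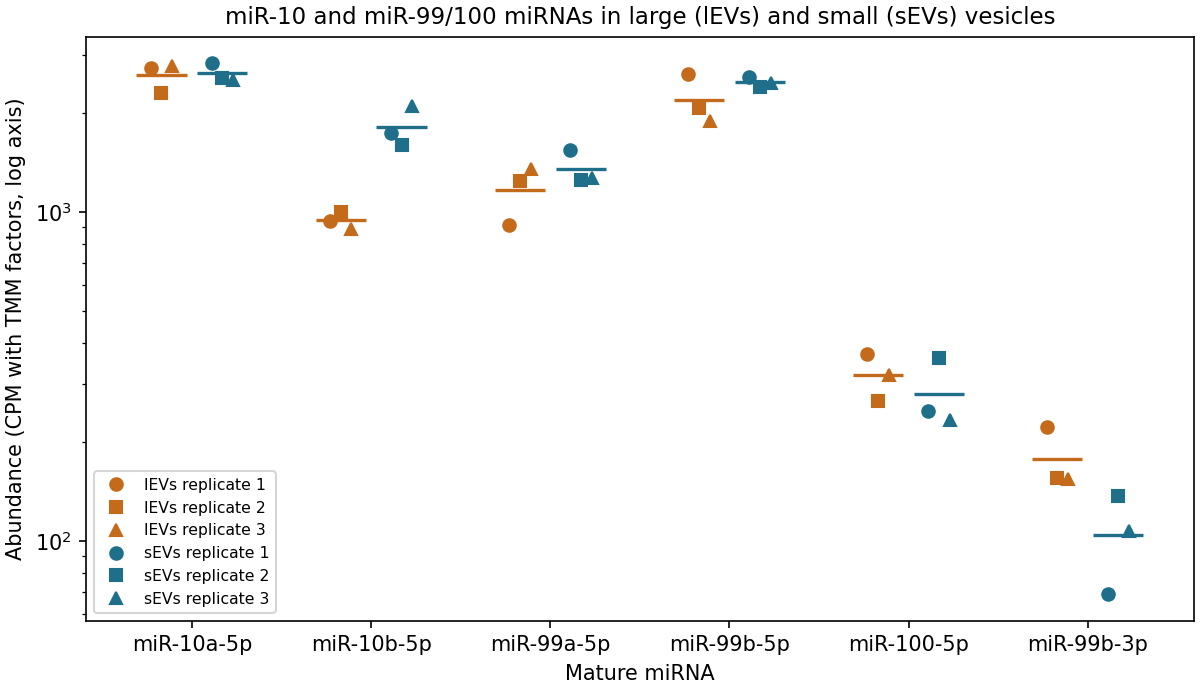
Abundance of the 6 members in each library, in CPM with TMM factors on a log axis; points are libraries, shaped by replicate number, and bars are means of 3 libraries. For miR-10b-5p the 3 sEVs points lie above all lEVs points, and for miR-10a-5p the fractions overlap at means of 2605 and 2637 CPM.

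Within each fraction the levels fell in nearly the same order. In both, miR-10a-5p came first and miR-99b-5p second. Their ranges over libraries overlapped, but within each of the 6 libraries miR-10a-5p had the higher count, by the least in sEVs replicate 3 (281 against 275). Next came miR-10b-5p and miR-99a-5p, which overlapped in lEVs at means of 943 and 1169 CPM. In sEVs the order of those means was the reverse, and the lowest miR-10b-5p value, 1596 CPM, was above the highest miR-99a-5p value, 1546 CPM. miR-100-5p and then miR-99b-3p were the lowest in both fractions and were set apart from each other in every library. Among the 145 rows tested the members ranked 41 (miR-10a-5p), 43 (miR-99b-5p), 56 (miR-10b-5p), 58 (miR-99a-5p), 94 (miR-100-5p) and 130 (miR-99b-3p). All 6 together made up 0.773% ± 0.0924 of lEVs counts and 0.834% ± 0.0385 of sEVs counts (SD, n = 3; by exact permutation, two-sided p = 0.4). The difference of 0.0611 percentage points fell to 0.00779 without lEVs replicate 1, when the lEVs mean was 0.826%, and was 0.126 with TMM-scaled totals.

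Within the miR-10 seed group the make-up differed between the fractions. miR-10b-5p supplied 25.5%, 30.3% and 24.3% of the counts with that seed in lEVs and 38.1%, 38.4% and 45.4% in sEVs. The seed group as a whole took 0.371% ± 0.0499 of library counts in lEVs and 0.428% ± 0.0288 in sEVs, and these shares overlapped (SD, n = 3; by exact permutation, two-sided p = 0.2). Without lEVs replicate 1 the lEVs mean was 0.399%. The ratio of miR-10b-5p to miR-10a-5p needs no scaling between libraries. It was 0.345, 0.435 and 0.322 in lEVs and 0.616, 0.625 and 0.833 in sEVs, so the fractions did not overlap and the mean ratio was 1.88-fold higher in sEVs. The exact two-sided permutation p of this log2 difference of 0.91 was 0.1, the smallest that 3 libraries against 3 allow, and 0.125 after Benjamini-Hochberg adjustment over the 10 ratios tested.

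The same ratio was also tested by fitting limma to the log2 ratio of every row tested to 1 reference miRNA, with p-values adjusted over all 144 rows. Relative to miR-10a-5p the rise of miR-10b-5p was 0.91 ± 0.22 (SE; limma, adjusted p = 0.0103). That call was lost when lEVs replicate 3 or sEVs replicate 3 was left out, with limma adjusted p up to 0.0720 and differences from 0.77 to 1.04 over the 6 left-out fits. In the fit with miR-10a-5p as the reference 18.1% of all rows passed. The noise of a reference is shared by every row of such a fit, which limma does not take into account. Its p-values and SE for ratios, here and below, may therefore be too small, most so for references with low counts.

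The make-up of the miR-99/100 seed group overlapped between the fractions when all 6 libraries were kept. miR-99b-5p supplied 59.3% ± 7.14 of its counts in lEVs and 60.3% ± 1.72 in sEVs. miR-99a-5p supplied 32.0% ± 7.64 and 32.8% ± 2.30, and miR-100-5p 8.64% ± 1.06 and 6.85% ± 1.84. For miR-99b-5p the overlap rested on lEVs replicate 1, at 67.1%: the other lEVs libraries stood at 57.8% and 53.0%, below the 58.9%, 59.9% and 62.2% of sEVs. The shares of miR-99a-5p and miR-100-5p overlapped without that library too. The ratio of miR-99a-5p to miR-100-5p was 2.42, 4.59 and 4.17 in lEVs and 6.08, 3.43 and 5.34 in sEVs, which also overlapped (exact two-sided permutation p = 0.4).

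Comparing the Hox-cluster members with those beside let-7 and miR-125 gave a small difference. The summed counts of miR-10a-5p and miR-10b-5p over those of miR-99a-5p, miR-99b-5p and miR-100-5p came to 0.943, 0.926 and 1.03 for the lEVs libraries and to 1.05, 1.04 and 1.16 for the sEVs libraries. The fractions did not overlap, but the highest lEVs and the lowest sEVs ratio lay next to each other. The log2 difference was 0.17 (exact two-sided permutation p = 0.1, adjusted 0.125 over the 10 ratios). The members beside let-7 and miR-125, miR-99b-3p included, held 0.402% ± 0.0450 of lEVs counts and 0.406% ± 0.0170 of sEVs counts (SD, n = 3; by exact permutation, two-sided p = 0.9). Without lEVs replicate 1 the lEVs mean was 0.427%, above that of sEVs, and without sEVs replicate 1 the difference of sEVs from lEVs was -0.00625 percentage points.

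What this contrast showed depended on which Hox member was the reference. Relative to miR-10a-5p, 0 of the 4 other members passed in limma, and 0 had an unadjusted p under 0.05, as 37.5% of all rows did. The differences were 0.20 for miR-99a-5p, 0.17 for miR-99b-5p, -0.22 for miR-100-5p and -0.79 for miR-99b-3p, with limma adjusted p from 0.232 to 0.565. Relative to miR-10b-5p all 4 passed and all were lower in sEVs, but 70.1% of all rows tested also passed against that reference. The values were -0.71 ± 0.25 for miR-99a-5p (SE; limma, adjusted p = 0.0189) and -0.74 ± 0.23 for miR-99b-5p (SE; limma, adjusted p = 0.00894). They were -1.13 ± 0.34 for miR-100-5p (SE; limma, adjusted p = 0.00810) and -1.70 ± 0.50 for miR-99b-3p (SE; limma, adjusted p = 0.00692). The calls of miR-99b-5p and miR-99b-3p held in all 6 fits that left out a library. That of miR-99a-5p was lost without lEVs replicate 3 (limma, adjusted p = 0.118) and without sEVs replicate 3 (0.0852), and that of miR-100-5p without sEVs replicate 3 (0.0575).

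**Figure D2:**
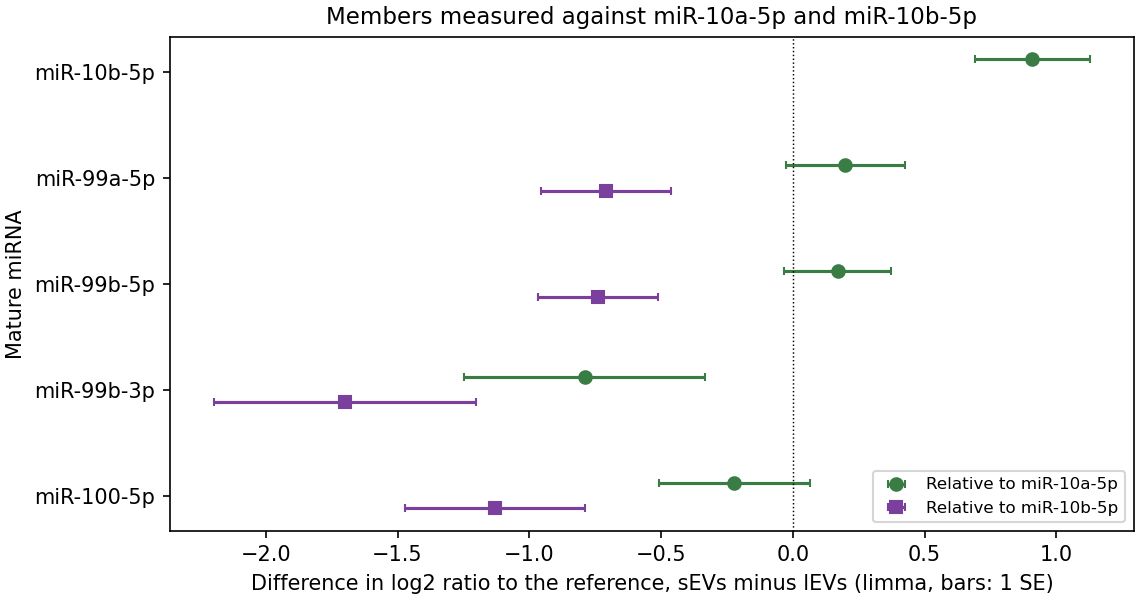
Difference between sEVs and lEVs in the log2 ratio of each member to miR-10a-5p (circles) or miR-10b-5p (squares), with bars of 1 SE from limma over 3 libraries a fraction. All squares lie below 0, from -0.71 to -1.70, while the circles of the miR-99/100 guide strands lie between -0.22 and 0.20 and that of miR-10b-5p at 0.91.

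Of the 5 miRNAs that share a cluster with the miR-99/100 members, 2 rose in small vesicles in the same edgeR fit. In that fit 8.28% of all rows were called as higher in sEVs. Of the 4 members beside them 0 rose, and the difference between these counts was not tested. Without lEVs replicate 1, when 34.4% of 151 rows were called in either direction, all 5 neighbours rose and again 0 of the 4 members. With all 6 libraries the 2 called were miR-125a-5p and miR-125b-5p, while let-7a-5p, let-7c-5p and the joined row let-7e-5p/7k were not called. The 5 neighbours had a median log2 fold change of 0.58 and together held 15.1% ± 1.06 of lEVs counts and 22.6% ± 1.30 of sEVs counts (SD, n = 3; by exact permutation, two-sided p = 0.1). The miR-125 sequences are given because the contrast with their cluster mates turns on them.
miR-125a-5p: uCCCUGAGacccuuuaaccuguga
miR-125b-5p: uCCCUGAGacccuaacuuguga
miR-125b-5p comes from 2 loci, one beside Mir99a and one beside Mir100, and its counts cannot be divided between them. let-7a-5p and let-7c-5p also have further loci outside these clusters.

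In the chromosome 17 cluster 3 hairpins span 692 bases, and the abundance of the mature miRNAs rose along it. miR-125a-5p stood at 20557, 14570 and 14253 CPM in lEVs and 44326, 39041 and 38047 CPM in sEVs, so every sEVs library was above every lEVs library. Its log2 fold change was 1.30 ± 0.17 (SE; edgeR, adjusted p = 0.00184). Per count of miR-99b-5p there were 7.82, 7.04 and 7.52 counts of miR-125a-5p in lEVs and 17.2, 16.2 and 15.4 in sEVs. Within a fraction this ratio hardly varied, including in lEVs replicate 1, and between fractions it differed 2.18-fold. Relative to miR-99b-5p, miR-125a-5p was higher by 1.13 ± 0.13 (SE; limma, adjusted p = 0.000397) and passed in all 6 left-out fits. In that fit 23.6% of all rows passed.

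let-7e-5p/7k, between them on the chromosome, stood at 4942, 3039 and 3140 CPM in lEVs and 6169, 5392 and 4902 CPM in sEVs. lEVs replicate 1 reached into the sEVs range. Its log2 fold change was 0.58 ± 0.21 (SE; edgeR, adjusted p = 0.0844), and 0.82 without that library (edgeR, adjusted p = 0.000119). Relative to miR-99b-5p it was higher by 0.41 ± 0.18 (SE; limma, adjusted p = 0.131), which passed only without lEVs replicate 1 (0.50; limma, adjusted p = 0.0133). So the value for let-7e-5p/7k lay between those of the hairpins on either side of it.

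The arms of the Mir99b hairpin itself also had unlike values. Per count of miR-99b-3p there were 11.2, 12.9 and 11.8 counts of miR-99b-5p in lEVs and 33.9, 16.9 and 22.0 in sEVs, with no overlap (exact two-sided permutation p = 0.1, adjusted 0.125). In the fit relative to miR-99b-5p the difference was -0.96 ± 0.41 (SE; limma, adjusted p = 0.122) and did not pass. It passed with a pseudocount of 5 counts (-0.79; limma, adjusted p = 0.0442). Summed over libraries, the 5′ arm made up 92.6% of the hairpin's counts in lEVs (95% Wilson interval 90.1% to 94.5%) and 95.8% in sEVs (94.1% to 97.1%). These intervals cover counting error only.

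In the chromosome 16 cluster the miR-125 member again gained on the miR-99 member. miR-125b-5p stood at 30367, 31518 and 30262 CPM in lEVs and 78494, 69974 and 69810 CPM in sEVs. Its log2 fold change was 1.24 ± 0.12 (SE; edgeR, adjusted p = 0.000534). Per count of miR-99a-5p there were 32.8, 25.3 and 22.3 counts of miR-125b-5p in lEVs and 50.6, 55.9 and 55.0 in sEVs, with no overlap. Relative to miR-99a-5p this was a rise of 1.02 ± 0.33 (SE; limma, adjusted p = 0.0304), against 16.7% of all rows passing. It held without lEVs replicate 1 (1.18; limma, adjusted p = 1.6e-07) but was lost when any of the other 5 libraries was left out, with limma adjusted p up to 0.141. By exact permutation over all 6 libraries the two-sided p of this ratio was 0.1, the smallest possible. let-7c-5p relative to miR-99a-5p gave 0.07 ± 0.38 (SE; limma, adjusted p = 0.913) in all libraries. lEVs replicate 1 decided this value: it held 113 counts of let-7c-5p per count of miR-99a-5p, against 44.8 and 41.8 in the other lEVs libraries and 57.6, 68.5 and 61.5 in sEVs. Without it the difference was 0.53 (limma, adjusted p = 0.00686).

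In the chromosome 9 cluster the miR-125 counts exceeded those of the miR-99/100 member by the widest margin of the 3 clusters in every library. Per count of miR-100-5p there were 79.3, 116 and 93.0 counts of miR-125b-5p in lEVs and 307, 192 and 293 in sEVs. Relative to miR-100-5p, miR-125b-5p rose by 1.44 ± 0.27 (SE; limma, adjusted p = 6.42e-06), passed in all 6 left-out fits, and did so where 19.4% of all rows passed. This reference had only 15 to 34 counts a library, and all rows of the fit share its noise, so the limma p may be far too small. The exact two-sided permutation p of the same ratio was 0.1, the smallest that 3 libraries against 3 allow. let-7a-5p relative to miR-100-5p was higher by 0.59 ± 0.29 (SE; limma, adjusted p = 0.164), and passed only without sEVs replicate 2 (0.77; limma, adjusted p = 0.0222). Because the counts of miR-125b-5p pool both of its loci, its ratios on chromosomes 9 and 16 share a numerator and are not separate observations.

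**Figure D3:**
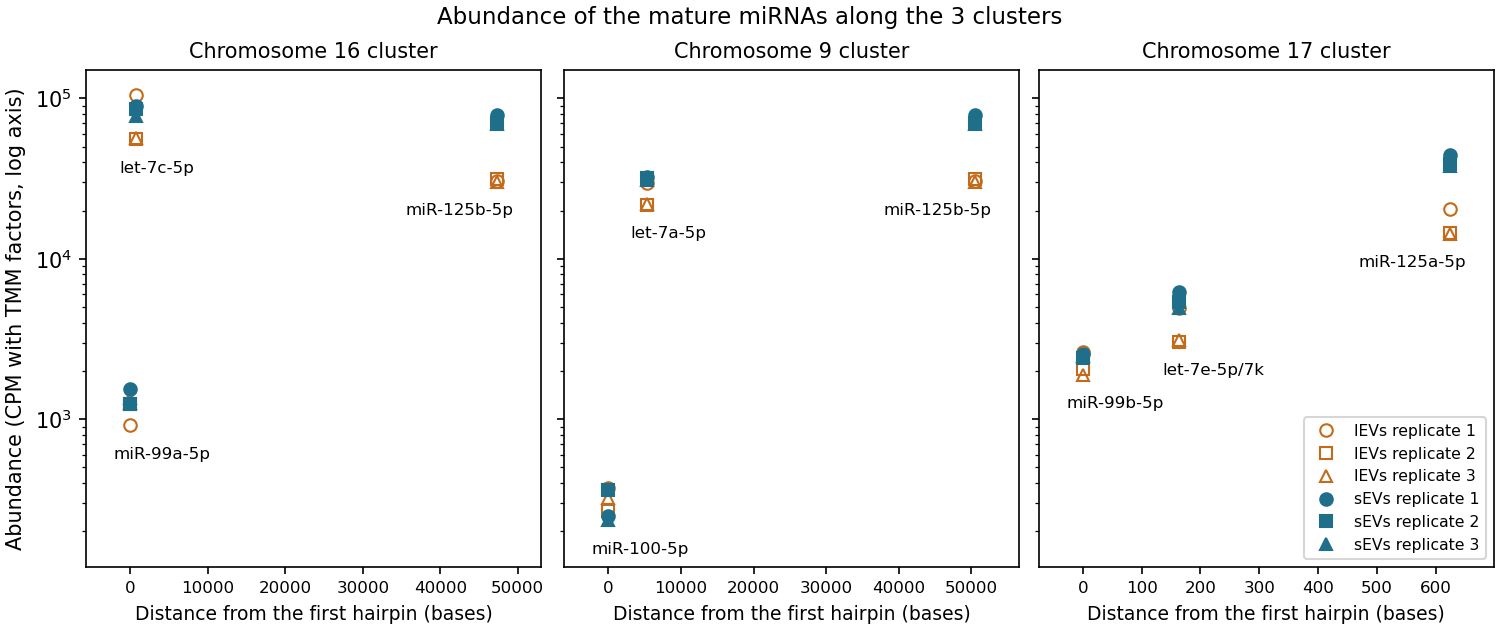
Abundance of each mature miRNA (CPM with TMM factors, log axis) against the start of its hairpin, as distance in bases from the miR-99/100 hairpin, in the 3 clusters; open symbols are lEVs libraries and filled symbols sEVs libraries. miR-125b-5p is drawn in 2 panels with the same counts, and the sEVs points of both miR-125 miRNAs lie above all their lEVs points.

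Against the summed Hox members, 32.9% of all other rows passed in limma. Of the 5 neighbours 2 passed: miR-125a-5p was higher by 0.99 ± 0.17 (SE; limma, adjusted p = 0.00203) and miR-125b-5p by 0.92 ± 0.14 (SE; limma, adjusted p = 0.000979). The let-7 neighbours had values of 0.06 (let-7a-5p), -0.04 (let-7c-5p) and 0.27 (let-7e-5p/7k), none past the threshold. Of the 4 members in these clusters 0 passed in limma, and 1 of the 4, miR-99b-3p, had an unadjusted p under 0.05, against 45.5% of all rows (-1.10; limma, adjusted p = 0.0735); it passed with a pseudocount of 5 counts (-0.93; limma, adjusted p = 0.0371). Relative to miR-10b-5p alone, miR-125a-5p and miR-125b-5p no longer passed (0.39 and 0.31; limma, adjusted p = 0.147 and 0.207). Without lEVs replicate 1, when 41.6% of rows passed against the summed Hox members, let-7e-5p/7k passed as well (0.47; limma, adjusted p = 0.0163). In the edgeR fit without that replicate, where 34.4% of 151 rows were called, all 5 neighbours were called as higher in sEVs and miR-10b-5p was still the 1 member called.

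**Figure D4:**
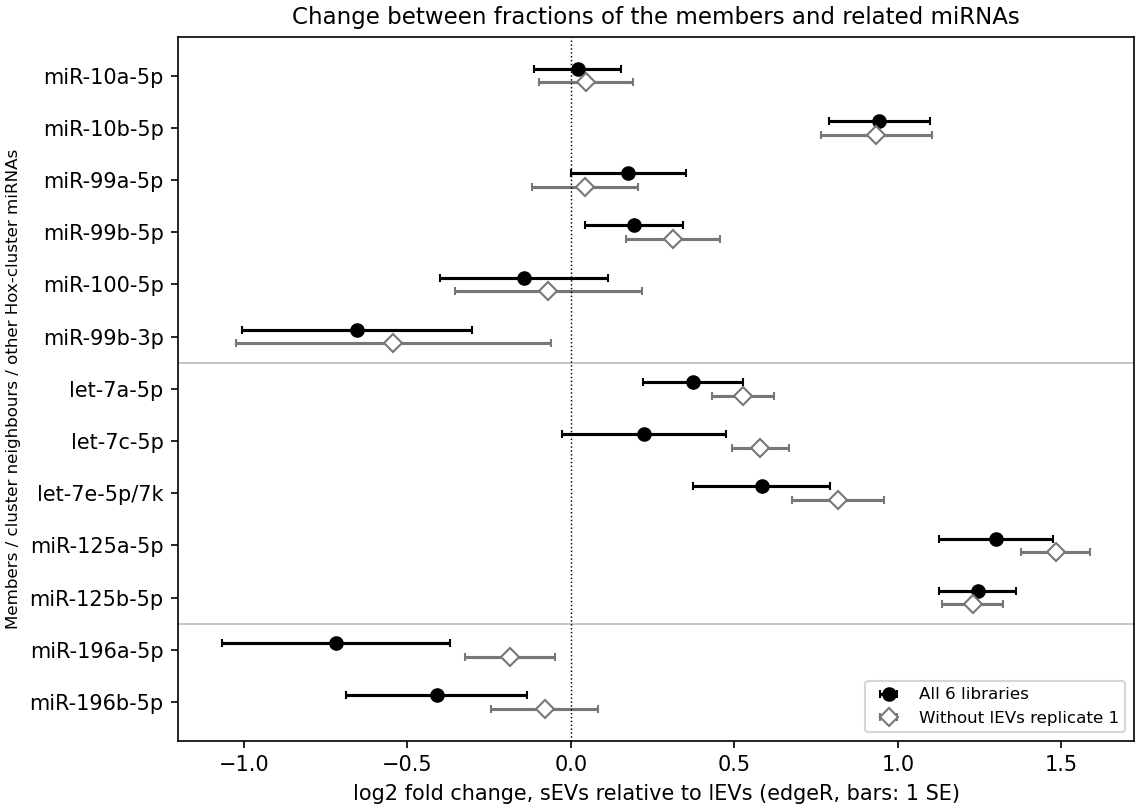
Log2 fold change of sEVs relative to lEVs from edgeR, with bars of 1 SE, for the members, their cluster neighbours and 2 other Hox-cluster miRNAs, with all 6 libraries (filled) and without lEVs replicate 1 (open). miR-10b-5p lies at 0.94 and 0.93, miR-125a-5p at 1.30 and 1.48, and the 3 let-7 neighbours move to the right when that library is left out.

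**Figure D5:**
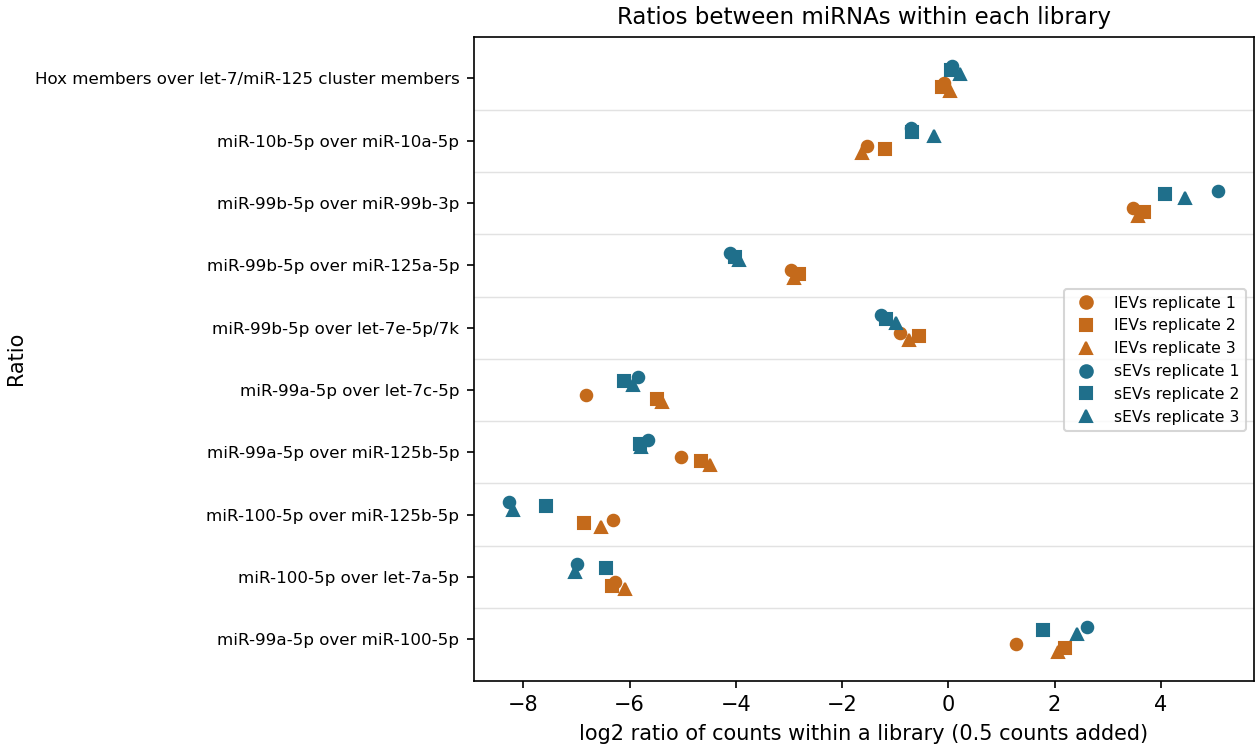
The 10 within-library ratios as log2 values, after adding 0.5 counts to both sides; points are libraries. The fractions overlap only for miR-99a-5p over let-7c-5p, where lEVs replicate 1 lies lowest, and for miR-99a-5p over miR-100-5p. Several ratios share a miRNA and are not separate observations, and 44.1% of single rows tested did not overlap in CPM either.

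Of the other miRNAs of the Hox clusters, 2 of the 7 rows listed could be tested, miR-196a-5p and miR-196b-5p, which are known to target Hoxb8. With the filter on low counts, 0 of these 2 were called by edgeR, DESeq2 or limma voom, where the main edgeR fit called 17.2% of all rows. An unadjusted p under 0.05 in edgeR was reached by 0 of the 2, against 37.9% of all rows. miR-196a-5p was counted 364, 376 and 379 times in lEVs and 220, 343 and 344 times in sEVs. lEVs replicate 1 stood out at 8994 CPM against 3452 and 3914 CPM in the other lEVs libraries, of which the first lay within and the second above the sEVs values of 3036, 3626 and 3088 CPM. The log2 fold change was -0.72 ± 0.35 (SE; edgeR, adjusted p = 0.161), and -0.19 without lEVs replicate 1 (edgeR, adjusted p = 0.299). With no filter on low counts it was called as lower in sEVs (-0.72; edgeR, adjusted p = 0.00127), as 1 of 53 rows called among 327. miR-196b-5p had -0.41 ± 0.28 (SE; edgeR, adjusted p = 0.303), and -0.08 without that library. Relative to the summed miR-10 counts, miR-196a-5p was lower in sEVs with all libraries (-0.94; limma, adjusted p = 0.0426) and without lEVs replicate 1 (-0.54; limma, adjusted p = 0.00665). In these fits 32.9% and 41.6% of all rows passed.

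The rows that ran most like each member were sought among 137 tested rows of at least 100 CPM, by the root mean square difference of log2 CPM over the 6 libraries after centring each row on its mean. miR-10a-5p lay closest to miR-223-3p, a myeloid miRNA, at 0.111, and to miR-708-5p at 0.132. miR-99b-5p lay closest to miR-379-5p at 0.0624 and to miR-126a-3p, an endothelial miRNA, at 0.103. miR-10b-5p had looser matches, miR-23a-3p/23b-3p at 0.176 and miR-434-3p at 0.201, both called as higher in sEVs (log2 fold changes 0.86 and 1.37; edgeR, adjusted p = 0.00263 and 0.0211). The distance takes in the difference between the fractions, so rows close to miR-10b-5p share its rise by the way they were picked. The member nearest to miR-10b-5p was miR-99b-5p at 0.411. For every member both rows picked lay closer than any other member did, but far more rows than members were searched. For miR-99a-5p the closest rows were let-7d-5p and miR-152-3p, both at 0.132. For miR-100-5p they were miR-181b-5p at 0.155 and miR-351-5p at 0.203, and for miR-99b-3p miR-148b-3p at 0.197 and let-7i-5p at 0.250.

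The shares of library totals held by marker miRNAs of other cell types differed between the fractions for some lists. The 2 endothelial rows, both detected, held 6.52% to 7.80% of counts in lEVs and 8.24% to 8.60% in sEVs. Both lymphoid rows together held 0.0949% to 0.164% and 0.191% to 0.223%, and both cartilage rows 1.41% to 2.03% and 1.09% to 1.18%. The lymphoid rows differed in direction. The log2 fold change was 0.91 for miR-150-5p (edgeR, adjusted p = 0.00268) and -0.62 for miR-155-5p (edgeR, adjusted p = 0.341). As shares of library totals these 3 lists did not overlap between fractions. In CPM, 44.1% of all single rows tested did not overlap either. With TMM factors (1.18 for lEVs replicate 2, 0.96 for sEVs replicate 1) the cartilage list overlapped. Neither cartilage row was called: miR-140-3p had -0.42 (edgeR, adjusted p = 0.253) and miR-140-5p -0.81 (edgeR, adjusted p = 0.119). Without lEVs replicate 1 these log2 fold changes were -0.05 and -0.47, again without a call. The mesenchymal list, with 5 of 5 rows detected, overlapped at 11.2% to 12.7% in lEVs and 12.1% to 13.8% in sEVs. The myeloid list, 3 of 3, did so at 4.08% to 5.60% and 4.34% to 4.80%. The skeletal muscle list (1.78% to 2.58% and 1.67% to 2.00%) and the erythroid list (0.525% to 0.740% and 0.428% to 0.558%) overlapped as well. Of the rows listed for liver, neural and epithelial cells, miR-122-5p, miR-124-3p and miR-200b-3p were at 0 in all libraries. The other neural row, miR-9-5p, held up to 0.00503% of counts in a library, and the other 3 of the 4 epithelial rows were detected at a summed share of at most 0.0126%. The part of these differences in share in the rise of miR-10b-5p was not tested. Bone cells have no marker miRNA in these lists that would set them apart from other mesenchymal cells.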

How the data were processed

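Whole-number counts per mature miRNA and library were deposited by the authors, without normalization. Per the labels' protocols, QIAseq libraries were read as single reads of 75 bases on a MiSeq. Per the submitters' processing notes, the build was GRCm38, with R 4.2.2 and DESeq2 1.38.2. For the aligner, the use of strand and the choice of reads or molecular identifiers as the unit counted, nothing is given in the sources used here. No member was in a row that joins several names. The table held 0 values of 1, so a 0 may stand for 0 or 1 and no upper limit was taken from zeros.

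Columns were matched to libraries by their labels. All rows entered edgeR 4.0.16 under R 4.3.3 (quasi-likelihood test, TMM, filterByExpr with a minimum count of 10 and a minimum total of 15). Benjamini-Hochberg adjustment ran over the rows tested, and standard errors were the absolute log2 fold change over the root of F. Log2 ratios to a reference miRNA, with 0.5 counts added, were fitted over all other rows tested with limma 3.58.1. Single values were compared by exact permutation over libraries. Both fits were also run on simulated counts, the ratio fit with the summed Hox members as its only reference. That simulation had the same spread for all rows and no deviating library, unlike these data, so no conclusion is drawn from it. Within a fraction, chi-square over degrees of freedom between libraries ran from 2.35 to 23.7, so no library was a near copy.

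The members and lists were chosen with earlier results of these data known. Named miRNAs were the 6 members, their cluster neighbours, opposite arms, other Hox-cluster miRNAs and the 2 nearest rows of each member. Alternatives were DESeq2 1.42.0, limma voom, other scalings and filters, a replicate block, other pseudocounts and references, and each library left out. The fits relative to miR-99a-5p, miR-99b-5p and miR-100-5p were chosen after seeing the data.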

Additional observations from a re-analysis of the deposited data

How the results depend on the processing

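miR-10b-5p was the 1 member called under each of the 14 alternatives to the edgeR fit, DESeq2 and limma voom included. The rows called numbered 53 without a filter on low counts, when 327 were tested (20 higher in sEVs, 33 in lEVs), and 16 to 52 when a library was left out, lowest without lEVs replicate 3 and highest without lEVs replicate 1. With library totals in place of TMM factors the split was 11 higher in sEVs and 24 in lEVs, against 12 and 13, and the median of all rows moved from -0.04 to -0.18. miR-10a-5p, never called, turned to -0.11 with library totals, to -0.0056 without a filter, and ran from -0.10 to 0.047 over the left-out fits. Whether equal replicate numbers share a preparation is not given, and so few libraries cannot settle it. Deviations of same-numbered lEVs and sEVs correlated at -0.09, 0.10 and 0.39, and those of differently numbered ones at -0.31 to 0.16. With the number as a replicate block 26 rows were called, among them let-7e-5p/7k (0.60; edgeR, adjusted p = 0.0399), which also passed in DESeq2 (0.59; adjusted p = 0.0333) and without a filter (0.57; edgeR, adjusted p = 0.0163), and miR-125b-5p relative to miR-99a-5p was lost (limma, adjusted p = 0.159). Relative to the summed Hox members 47 rows were called, but 101 with miR-10b-5p alone and 26 with miR-10a-5p alone, and 23 to 62 over the left-out fits, lowest without sEVs replicate 1, with 24 without sEVs replicate 3 and 31 without lEVs replicate 3. Against miR-10b-5p alone let-7a-5p turned to -0.54 and let-7e-5p/7k to -0.33; against miR-10a-5p alone miR-99a-5p turned to 0.20, miR-99b-5p to 0.17 and let-7c-5p to 0.27. The following ranges over left-out fits cross 0: let-7a-5p (-0.029 to 0.18) and let-7c-5p (-0.21 to 0.23) relative to the Hox members, miR-99a-5p relative to miR-10a-5p (-0.0038 to 0.34), miR-99a-5p over let-7c-5p (-0.53 to 0.19) and its inverse in limma (-0.19 to 0.53). The causes were not tested. Depth limits miR-100-5p and miR-99b-3p most, with at most 34 counts a library.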

Other observations

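Apart from miR-99b-3p, the opposite arms of the member hairpins were nearly absent. miR-10a-3p had between 0 and 8 counts a library, miR-10b-3p between 0 and 5, and miR-100-3p was at 0 in every library. miR-99a-3p, which shares the seed AAGCUCG with miR-99b-3p, had 0, 5 and 4 counts in lEVs replicates 1 to 3 and 0 in each sEVs library. Of 10 opposite arms listed, the neighbours' included, 1 could be tested: miR-125b-2-3p, which comes from the chromosome 16 locus alone, unlike miR-125b-5p. It was counted 7, 18 and 13 times in lEVs and 6, 30 and 35 times in sEVs, a difference of 0.67 ± 0.46 on the log2 scale (SE; edgeR, adjusted p = 0.309). It passed only without sEVs replicate 1, at 1.05 (edgeR, adjusted p = 0.0413). miR-125b-1-3p, from the chromosome 9 locus, had 4 counts in sEVs replicate 2 and 0 elsewhere.

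Among the Hox-cluster miRNAs too low to test, miR-615-3p, from the Hoxc cluster, was counted 5, 8 and 5 times in the lEVs libraries and 0, 8 and 11 times in the sEVs libraries. The 7 other Hox-cluster rows together held 0.727% ± 0.243 of lEVs counts and 0.448% ± 0.0476 of sEVs counts, without overlap (SD, n = 3; by exact permutation, two-sided p = 0.1). The share was 1.01% in lEVs replicate 1 and averaged 0.588% in the other 2 lEVs libraries. These are shares of library totals. In CPM with TMM factors, miR-196a-5p and miR-196b-5p, which hold most of these counts, each overlapped between fractions, with and without lEVs replicate 1.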
